A study of Mus musculus with 6 samples.

Results

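The genes described here are the keratins of simple epithelium, Krt7, Krt8, Krt18, Krt19 and Krt20, and Vim, which encodes vimentin. They were chosen by name, and all 6 were found among the 22180 genes named on the array, with 2 probe sets each for Krt18 and Vim and 1 for each other gene. Where a gene had 2 probe sets, the one with the higher mean over all 6 arrays was used. The tissue was the outer wall of the eye behind the retina, which holds the retinal pigment epithelium (RPE), the vascular choroid and the fibrous sclera. The 3 5XFAD samples came from mice heterozygous for the 5XFAD transgenes, which carry familial Alzheimer's disease mutations under the neuronal Thy1 promoter. The other 3 samples came from wild-type littermates. All mice were aged 12 months and untreated, and each sample was hybridised to 1 array. The comparison asks which transcripts of this tissue differ between the genotypes in a line studied for a pathology resembling dry macular degeneration.

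Keratins assemble from pairs of a type II and a type I chain, and simple epithelia, made of a single cell layer, build their filaments mainly from the Krt8 and Krt18 proteins. Keratins 7, 19 and 20 are added in ducts, glands, mucosal surfaces and a few specialised cells, and keratin 19 is also made by conjunctival epithelium. Vimentin, a type III filament protein, is typical of fibroblasts, endothelium, leukocytes and glia. RPE cells contain the Krt8 and Krt18 proteins, and cultured RPE cells that lose their epithelial form gain vimentin.

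Whether the samples were separate animals is not given in the labels. The p-values therefore reflect spread among 6 samples that could be technical in part, and 6 arrays limit how small a difference can be seen. Per-array medians lay between 5.59 and 5.71 log2 intensity. The tissue label matched its markers, with 14 RPE markers at a median percentile of 99.2 of all genes by mean signal, 10 fibroblast and sclera markers at 98.3 and 8 endothelial markers at 94.7. The RPE marker Best1 was dim, at percentile 33.7. Such percentiles are a guide to distance from background only, since probes differ in brightness.

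None of the 6 genes passed the threshold for a difference between 5XFAD and wild-type tissue. Krt19 was the gene with the largest difference, 1.29-fold higher in 5XFAD, with a 95% interval of 1.05-fold to 1.58-fold. Krt18 was at 0.854-fold (0.697 to 1.05), while Krt7, Krt8, Krt20 and Vim lay between 0.918-fold and 1.09-fold. The count at a Benjamini-Hochberg adjusted p under 0.05 in limma, a linear model test with a shared estimate of the spread, was 0 of 6, against 5 of 22180 genes tested (0.0225%). At an unadjusted p under 0.05 in limma it was 1 of 6, Krt19, beside 6.28% of all genes. The 3 arrays of each group did not overlap in Krt19 and Krt20, 2 of 6 genes, beside 11.3% of all genes. With 6 genes, 1 call at an unadjusted p and 2 without overlap are too few to set against these shares. The median log2 difference of the 6 genes was -0.052 and that of all genes -0.0092.

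**Figure D1:**
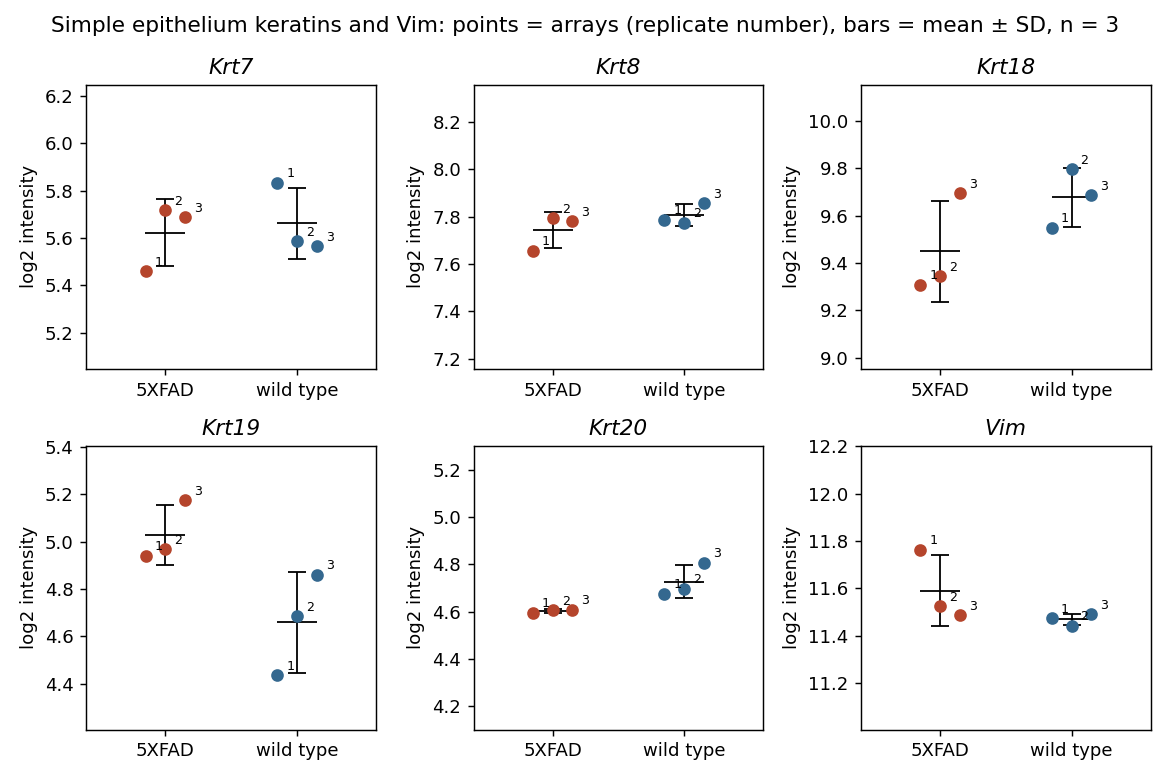
Log2 intensity of the 6 genes in each array, with 5XFAD on the left and wild type on the right, each panel spanning the same range of log2 units. Points are arrays with their replicate numbers, and bars are mean ± SD (n = 3). The groups separate in Krt19, where 5XFAD is higher, and by a small margin in Krt20, where 5XFAD is lower.

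Krt8 encodes the type II chain that pairs with the Krt18 protein in simple epithelia. Its log2 intensity was 7.66, 7.79 and 7.78 in 5XFAD replicates 1 to 3, against 7.79, 7.77 and 7.86 in wild-type replicates 1 to 3. The groups overlapped, and all 6 arrays lay within 0.20 of each other, a spread (SD 0.07 over the 6 arrays) smaller than that of all but 5.07% of genes. Means were 7.74 ± 0.08 in 5XFAD and 7.81 ± 0.04 in wild type (SD, n = 3 each, as for all means here), a log2 difference of -0.064 ± 0.097 (SE; limma, Benjamini-Hochberg adjusted p = 0.96). Its 95% interval ran from -0.28 to 0.15, a fold between 0.823 and 1.11. Without 5XFAD replicate 1, the lowest array, the difference was -0.020.

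Krt18 encodes the type I partner of keratin 8. Its log2 intensity was 9.31, 9.35 and 9.70 in 5XFAD, against 9.55, 9.80 and 9.69 in wild type. The lowest values were those of 5XFAD replicates 1 and 2, while 5XFAD replicate 3 lay among the wild-type arrays. Signal averaged 9.45 ± 0.21 in 5XFAD and 9.68 ± 0.12 in wild type, a log2 difference of -0.23 ± 0.13 with a 95% interval of -0.52 to 0.07 (limma, Benjamini-Hochberg adjusted p = 0.89). Without 5XFAD replicate 3 the difference was -0.35, and without 5XFAD replicate 1 it was -0.16. Neither passed the adjusted threshold (limma, Benjamini-Hochberg adjusted p = 0.67 and 0.99).

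The second Krt18 probe set was lower in every 5XFAD array than in any wild-type array. It gave 6.84, 6.98 and 7.01 in 5XFAD, against 7.35, 7.43 and 7.01 in wild type, where 5XFAD replicate 3 and wild-type replicate 3 were nearly equal. The difference was -0.32 ± 0.13 with a 95% interval of -0.61 to -0.03, and it did not pass in the fit of all single-symbol probe sets (adjusted p = 0.77 by limma with Benjamini-Hochberg). Averaged over both probe sets, the Krt18 difference was -0.28 (limma, Benjamini-Hochberg adjusted p = 0.77). Both probe sets thus had a negative difference, but their values, each centred on its own mean, were up to 0.26 apart in the same array.

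RPE markers, taken as a mean, were also lower in the 5XFAD arrays. The mean of the 14 RPE markers was 10.19, 10.16 and 10.28 in 5XFAD, against 10.44, 10.61 and 10.52 in wild type, with 10 of 14 lower and 1 of 14 higher at a limma p under 0.05 before adjustment (3.39% and 2.89% of all genes), and 0 past the adjusted threshold. The median difference of these markers was -0.42, with Rpe65 at -0.33 ± 0.11. The values of Krt8 (-0.064) and of the Krt18 probe set used (-0.23) were closer to 0 than this median. Some markers lay near that Krt18 value, with Rgr at -0.23, Ttr at -0.25 and Mitf at -0.19. The second Krt18 probe set, at -0.32, was near Rpe65. In tissue of mixed cell types, fewer cells of a type and less RNA per cell cannot be told apart, and the part of RPE content in the Krt18 value was not tested.

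Krt8 and Krt18 are neighbours on mouse chromosome 15, transcribed away from each other, with no protein-coding gene between them, although Krt18 encodes a type I chain and most type I genes lie in another cluster. The 60 bases before the annotated start of each are shown, on the gene's strand, because these genes encode the partner chains of the simple epithelial filament. They are RefSeq sequences of the GRCm38.p6 build, at chr15:102004343-102004402 on the minus strand for Krt8 and chr15:102028156-102028215 on the plus strand for Krt18, with a TATAA match in capitals. In Krt8 the match begins at the last base before the annotated start, so only its first letter is within the stretch shown.
Krt8: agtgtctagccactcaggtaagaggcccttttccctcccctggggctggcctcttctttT
Krt18: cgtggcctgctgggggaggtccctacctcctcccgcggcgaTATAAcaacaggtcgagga
The letters TATAA, searched on both strands from 60 bases before to 20 bases after the start, were present in 4 of the 5 promoters matched by symbol (Krt8, Krt18, Krt20 and Vim), in each case on the gene's strand. They were not in the Krt7 window, and they were in 8.48% of the windows of all 32851 RefSeq promoters. A match of these letters is a description of sequence and says nothing of binding.

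Krt7 encodes a type II keratin of ducts and glands. Its log2 intensity was 5.46, 5.72 and 5.69 in 5XFAD, against 5.83, 5.59 and 5.56 in wild type. The lowest array was 5XFAD replicate 1 and the highest wild-type replicate 1, with the other 4 between them. Signal averaged 5.62 ± 0.14 in 5XFAD and 5.66 ± 0.15 in wild type, and the log2 difference of -0.039 ± 0.12 had a 95% interval of -0.31 to 0.23 (limma, Benjamini-Hochberg adjusted p = 0.98). Its sign turned without 5XFAD replicate 1 (0.042) or wild-type replicate 1 (0.047). Its mean signal lay at percentile 42.4 of all genes.

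Krt19 encodes the smallest type I keratin, which lacks most of the tail found in other keratins. Its log2 intensity was 4.94, 4.97 and 5.18 in 5XFAD, against 4.44, 4.68 and 4.86 in wild type. Every 5XFAD array lay above every wild-type array, with a gap from 4.94 in 5XFAD replicate 1 to 4.86 in wild-type replicate 3. Means were 5.03 ± 0.13 in 5XFAD and 4.66 ± 0.21 in wild type, and the log2 difference was 0.37 ± 0.13 with a 95% interval of 0.07 to 0.66 (limma, unadjusted p = 0.020, Benjamini-Hochberg adjusted p = 0.70). A difference at least as large in size was seen in 3.60% of all genes. Krt19 signal was dim, at percentile 27.9 of all genes, where background compresses fold changes. The difference was 0.26 without wild-type replicate 1, the lowest array, and 0.29 without 5XFAD replicate 3, the highest, with limma unadjusted p = 0.085 and 0.074.

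Stratified epithelium keratins, taken as a mean, were also higher in the 5XFAD arrays. Averaged over the 13 measured of 14 listed, they gave 5.75, 6.07 and 6.20 in 5XFAD, against 5.09, 4.95 and 5.08 in wild type. Of these, 4 (Krt4, Krt6a, Krt13 and Krt15) passed the adjusted threshold as higher, beside 0.0225% of all genes. The higher mean was not shared by every gene, since 9 of 13 differences were positive. Without overlap of the groups, 6 were higher and 2 (Krt17 and Krt78) lower, beside 4.72% and 6.62% of all genes. Krt15, a basal-cell keratin whose gene lies next to Krt19 on chromosome 11, gave 7.75, 8.16 and 9.37 in 5XFAD, against 5.12, 4.74 and 4.76 in wild type. Its difference was 3.55 ± 0.34 (limma, Benjamini-Hochberg adjusted p = 0.013), where that of Krt19 was 0.37. Of the 3 5XFAD arrays, replicate 3 was the highest in both genes and replicate 1 the lowest. Among wild-type arrays the order was not shared, since replicate 1 was the highest in Krt15 and the lowest in Krt19. The part of surface epithelium in the Krt19 value was not tested.

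Krt20 encodes a type I keratin of intestinal epithelium, superficial urothelium and Merkel cells. Its log2 intensity was 4.59, 4.61 and 4.61 in 5XFAD, against 4.68, 4.70 and 4.81 in wild type. The 5XFAD arrays were nearly identical and all lay below the wild-type arrays. Signal averaged 4.60 ± 0.01 in 5XFAD and 4.73 ± 0.07 in wild type. The log2 difference of -0.12 ± 0.09 had a 95% interval of -0.34 to 0.09 (limma, unadjusted p = 0.22, Benjamini-Hochberg adjusted p = 0.92), and without wild-type replicate 3 it was -0.083. Non-overlap in this direction was found in 6.62% of all genes, against 4.72% in the other. Krt20 signal was dim, at percentile 24.8 of all genes. Of other markers of cells that make keratin 20, the 5 Merkel cell genes ran from percentile 27.1 (Atoh1) to 86.9 (Piezo2) with a median of 32.2, and the 5 uroplakin genes of urothelium from 22.7 (Upk1a) to 82.6 (Upk3b) with a median of 52.9.

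Vim gave 11.76, 11.52 and 11.49 log2 intensity in 5XFAD, against 11.47, 11.44 and 11.49 in wild type. One array stood out: 5XFAD replicate 1 was the highest, while the other 5 lay between 11.44 and 11.52 and the groups overlapped. Signal averaged 11.59 ± 0.15 in 5XFAD and 11.47 ± 0.02 in wild type, and the difference of 0.12 ± 0.11 on the log2 scale had a 95% interval of -0.12 to 0.37 (limma, Benjamini-Hochberg adjusted p = 0.93). Without 5XFAD replicate 1 it was 0.036 (limma, Benjamini-Hochberg adjusted p = 0.99). The second Vim probe set gave 8.69, 8.85 and 8.60 in 5XFAD, against 8.96, 8.65 and 8.37 in wild type, a difference of 0.057 ± 0.15. There the highest array was wild-type replicate 1, so the high value of 5XFAD replicate 1 was not shared by the 2 probe sets. The strand and position targeted by the second Vim probe set are likewise not given. Vim was among the brightest genes, at percentile 99.6.

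Macrophage and skeletal muscle markers were also highest in 5XFAD replicate 1, and those of fibroblasts were not. The mean of 9 macrophage markers was 8.96, 8.77 and 8.59 in 5XFAD, against 8.67, 8.65 and 8.62 in wild type, and that of 12 skeletal muscle markers was 7.87, 6.96 and 6.48 in 5XFAD, against 5.78, 5.95 and 7.35 in wild type. The glial filament gene Gfap gave 7.68, 5.54 and 6.51 in 5XFAD, against 5.62, 6.13 and 5.86 in wild type. Like Gfap, the glial markers Slc1a3 (6.16), Aqp4 (6.32) and Kcnj10 (6.82) were highest in 5XFAD replicate 1. The glutamine synthetase gene Glul, also a glial marker, was lowest in that array. It gave 11.26, 11.29 and 11.34 in 5XFAD, against 11.28, 11.44 and 11.28 in wild type. The mean of 9 retinal glia and photoreceptor genes was highest in 5XFAD replicate 1 (7.31), followed by wild-type replicate 1 (7.05). Its photoreceptor genes were split between these arrays. Gnat1 (9.34) and Pde6b (6.87) were highest in 5XFAD replicate 1, and Sag (8.01), Prph2 (7.67) and Arr3 (3.78) in wild-type replicate 1. The mean of 10 fibroblast and sclera markers was 9.77, 9.79 and 9.52 in 5XFAD, against 9.72, 9.64 and 9.57 in wild type, with 5XFAD replicate 2 the highest. Endothelial markers (8 genes) were nearly equal in 5XFAD replicates 1 and 3, at 9.12 and 9.11. With the muscle mean as a covariate the Vim difference was 0.052 ± 0.12. The part of these cell types in the Vim value was not tested. The promoter stretch of Vim, 60 bases at chr2:13574251-13574310 on the plus strand of GRCm38.p6, is shown for comparison with the keratin pair, again with TATAA in capitals.
Vim: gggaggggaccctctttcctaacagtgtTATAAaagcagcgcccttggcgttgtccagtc

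**Figure D2:**
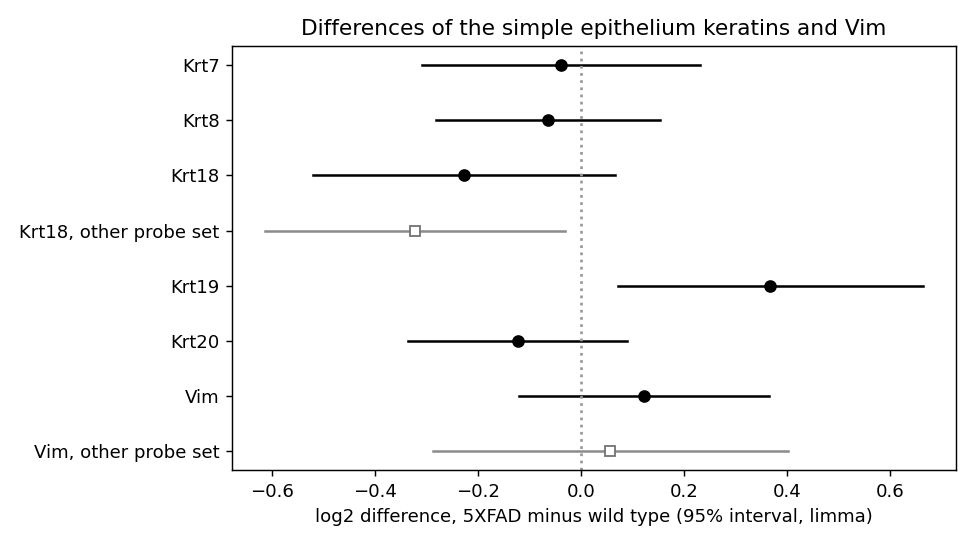
Log2 difference between 5XFAD and wild type for the 6 genes, with 95% intervals from limma. Filled circles are the probe sets used, and open squares are the second probe sets of Krt18 and Vim, from the fit of every probe set on its own. Among the probe sets used, the interval of Krt19 alone lies above 0, at 0.07 to 0.66, and that of the second Krt18 probe set lies below 0, at -0.61 to -0.03.

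**Figure D3:**
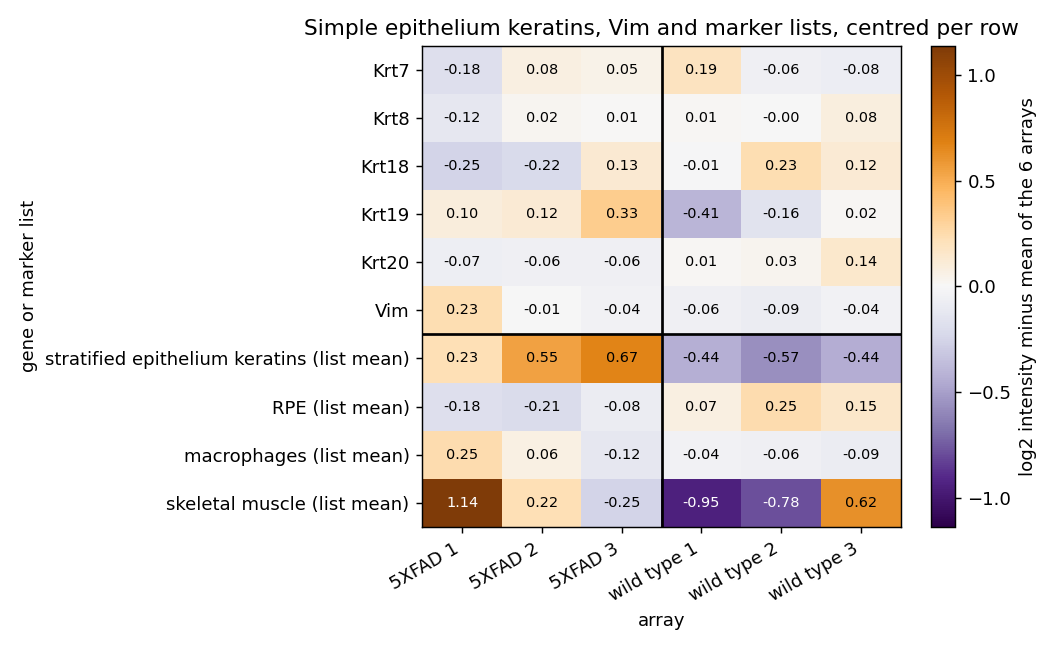
Each row is a gene or the mean of a marker list, and each column an array, 5XFAD to the left. Colour and number give the log2 intensity minus the mean of the row over 6 arrays. In 5XFAD, Krt19 is at 0.10, 0.12 and 0.33, and the stratified epithelium keratins are at 0.23, 0.55 and 0.67. Krt18 is at -0.25, -0.22 and 0.13 in 5XFAD, and the RPE markers are at -0.18, -0.21 and -0.08. Vim is highest in 5XFAD replicate 1 (0.23), as are the macrophage (0.25) and skeletal muscle (1.14) markers. In wild-type replicate 3 the skeletal muscle markers are at 0.62 and Vim is at -0.04.

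Other genes of simple and glandular epithelium, 20 of 21 listed, had 0 calls over all genes in limma, and before adjustment 3 were higher and 1 lower at p under 0.05, beside 2.89% higher and 3.39% lower of all genes. The median log2 difference was 0.11, with 13 of 20 positive, beside 47.2% of all genes. Elf3, an ETS transcription factor gene of epithelia, was at 4.88 ± 0.26 in 5XFAD and 4.21 ± 0.21 in wild type, a difference of 0.67 ± 0.16 with the groups apart (limma, Benjamini-Hochberg adjusted p = 0.40). Its relative Ehf differed by 0.51 ± 0.18 and the membrane mucin gene Muc1 by 0.40 ± 0.14, each with the groups apart. Krt23, a type I keratin gene next to Krt20 in the genome, was the lower one, at -0.33 ± 0.14 with overlapping groups. Ehf, Muc1 and Krt23 had limma Benjamini-Hochberg adjusted p-values of 0.67 to 0.77. Elf3 and Ehf were dim, at percentiles 22.7 and 26.9 of all genes, which limits their values as it does those of Krt19. The brightest genes of the list, Cdh1 and Spint2 (percentiles 91.7 and 90.4), differed by -0.08 ± 0.10 and 0.15 ± 0.12.

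Genes for proteins that tie keratin filaments to junctions or keep them soluble showed a median difference of 0.12, with 12 of 16 positive, beside 47.2% of all genes. The negative differences were those of Dsp (-0.19), Jup (-0.15), Itgb4 (-0.11, with the groups apart) and Pkp2 (-0.03). At an unadjusted p under 0.05 in limma, 1 of 16 was higher and 0 lower, a share near the 6.28% of all genes past this threshold, and 0 passed over all genes. The 1 gene was Pkp4, a plakophilin-related junction gene, at 8.89 ± 0.05 in 5XFAD and 8.43 ± 0.35 in wild type (0.46 ± 0.16; limma, Benjamini-Hochberg adjusted p = 0.68). The small heat shock gene Hspb1 differed by 0.28 ± 0.12, the desmosome-associated gene Pnn by 0.29 ± 0.15 and the plectin gene Plec, a linker of filaments of several types, by 0.14 ± 0.09.

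Among 11 other genes of vimentin-like and neural filaments, 0 were past an unadjusted p of 0.05 in limma, and the median difference was 0.09. The neurofilament gene Nefl differed by 0.30 ± 0.14, the internexin gene Ina by 0.24 ± 0.12, the muscle filament gene Des by 0.31 ± 0.16 and Gfap by 0.70 ± 0.43. In Des, as in Vim, 5XFAD replicate 1 was the highest array, at 7.97. Of 14 mesenchymal genes, 3 were higher and 1 lower at a limma p under 0.05 before adjustment, beside 2.89% higher and 3.39% lower of all genes, and 0 passed over all genes. Cd44, the hyaluronan receptor gene, differed by 0.36 ± 0.10 and the fibronectin gene Fn1 by 0.34 ± 0.11, both with the groups apart. Snai2, a transcription factor gene of mesenchymal cells, differed by 0.49 ± 0.20, and its relative Snai1 by -0.30 ± 0.12. The 4 had limma Benjamini-Hochberg adjusted p-values of 0.53 to 0.75.

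Across all 53 keratin genes measured, the median difference was -0.052. Keratins other than the 5 of simple epithelium numbered 48, of which 4 passed the adjusted threshold as higher, beside 0.0225% of all genes. Before adjustment, 6 were higher and 1 lower at a limma p under 0.05, beside 2.89% and 3.39% of all genes. The differences of the 13 stratified epithelium keratins ran from -0.22 to 3.55, with a median of 0.40. Those of the 6 genes described here ran from -0.23 to 0.37. The difference between the sets was not tested.

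**Figure D4:**
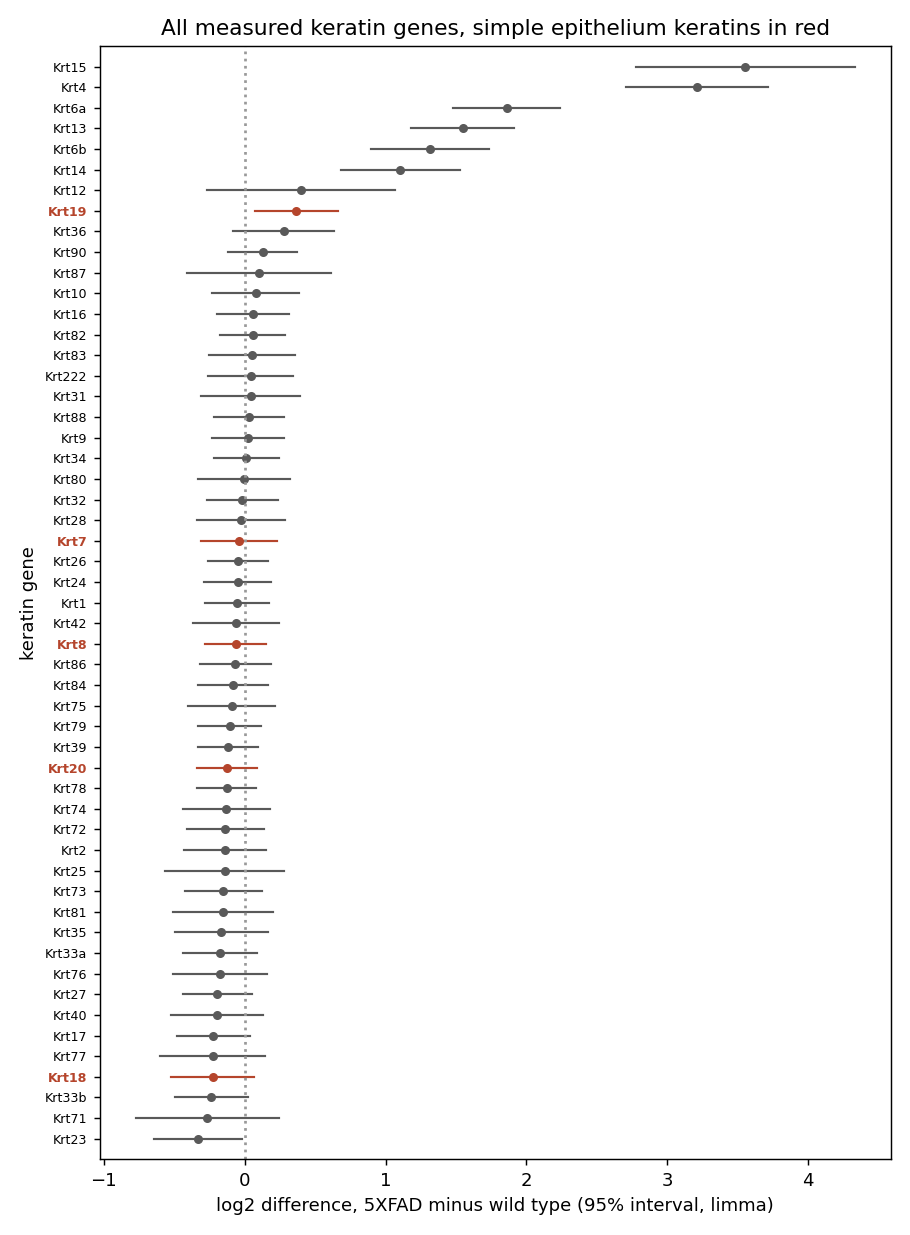
Log2 difference between 5XFAD and wild type for all 53 measured keratin genes, ordered by value, with 95% intervals from limma. The 5 simple epithelium keratins, in red, lie between -0.23 (Krt18) and 0.37 (Krt19). Every gene above Krt19 is a stratified epithelium keratin, from Krt12 (0.40) to Krt15 (3.55).

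The genes whose values over the 6 arrays ran most like each of the 6 were listed by Pearson correlation. They were sought among 2387 genes at or above the median signal with an SD of at least 0.2. Predicted genes, some receptor genes and small RNAs were passed over. With 6 arrays high values arise readily, so these are descriptions. Krt18 had 56 genes above 0.9, led by Cdv3 (0.991), the chloride channel gene Clic6 (0.987) and Paqr9 (0.987). Krt20 had 27, led by the ubiquitin ligase genes Rnf145 (0.997) and Neurl1a (0.984) and by Yrdc (0.966). Vim had 17, led by the immunoglobulin joining segment Igkj1 (0.979), Lmcd1 (0.979) and Rnf128 (0.975). Krt19 had 6, led by the microtubule gene Map2 (0.973), the transcription factor gene Mafk (0.967) and the immunoglobulin segment Igkv5-43 (0.964). Krt8 had 8, led by Rps4l (0.967), the mitochondrial creatine kinase gene Ckmt1 (0.936) and Cyb561 (0.928), and Krt7 had 1, the platelet gene Gp9 (0.950), followed by the corneal enzyme gene Aldh3a1 (0.878) and Smok4a (0.873).

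**Figure D5:**
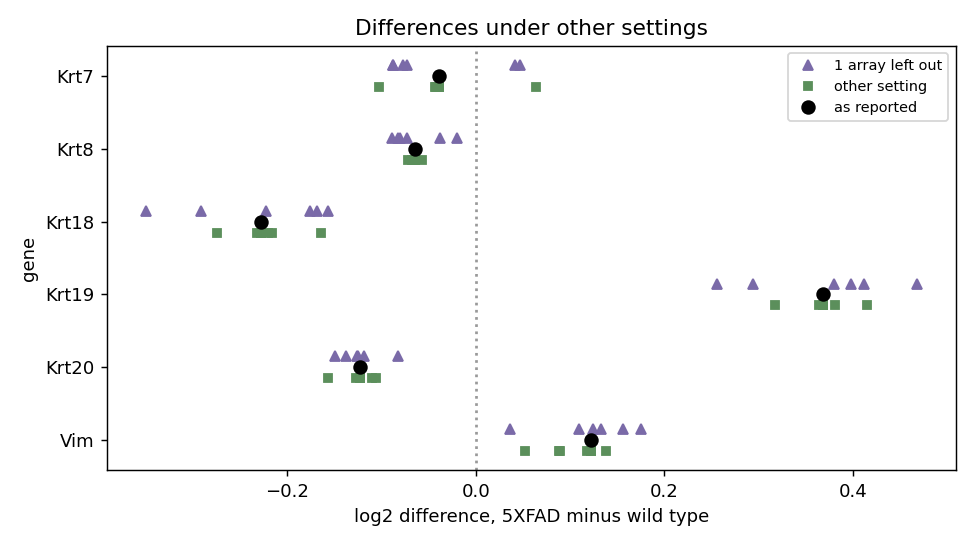
Log2 difference of each gene as reported (black circle), with 1 array left out (triangles) and under the other settings (squares). Krt19 and Vim stay above 0 and Krt8, Krt18 and Krt20 below 0 in all settings shown, while Krt7 lies on both sides, from -0.10 to 0.064.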

How the data were processed

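Biotin-labelled cDNA made from total RNA was measured on Affymetrix arrays, per the labels. The deposited values are log2 intensities, 1 per probe set. The submitters' processing notes name Affymetrix Expression Console 1.1 with RMA, a method that corrects background, quantile-normalizes and summarises probes. Any filter or pooling of animals is not given in the sources used here. Values were used as deposited. Of 33793 probe sets, 23521 had 1 symbol in the platform annotation, 1814 several and 8458 none. Only single-symbol probe sets were used, and 23328 matched RefSeq by Entrez identifier. Promoters came from RefSeq (GRCm38.p6).

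Groups came from sample titles. Differences are 5XFAD minus wild type from a two-sided limma fit (limma 3.58.1 under R 4.3.3; lmFit, then eBayes; no covariates). Residual degrees of freedom were 4 and the prior added 5.23. Benjamini-Hochberg adjustment covered 22180 genes, and the threshold was 0.05. The steps were tested on simulated data. The 6 genes, the 14 lists, the tests and the alternatives were chosen with earlier results of these data known. From each pathway list the 4 genes of smallest p were named, and from marker lists those a sentence needed. For each of the 6 genes the 3 of most similar pattern were named, passing over predicted genes, some receptor genes and small RNAs. Best1, Rpe65, Krt15, Krt4, Krt6a, Krt13, Krt17, Krt78, Atoh1, Piezo2, Upk1a, Upk3b, Krt12 and Glul were named after their values were seen. Rgr, Ttr, Mitf, Dsp, Jup, Itgb4, Pkp2, Arr3, Gnat1, Pde6b, Prph2, Sag, Cdh1 and Spint2 were also named after their values were seen. So were the genes in the closing observations. Alternatives were the replicate block, filters on dim genes, other normalizations, another prior, array weights, other uses of probe sets, a muscle covariate and each array left out.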

Additional observations from a re-analysis of the deposited data

How the results depend on the processing

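Differences of Krt8, Krt18, Krt19, Krt20 and Vim kept their sign under each alternative run, and none of the 6 genes passed the adjusted threshold in any. Krt7 turned to 0.064 with the skeletal muscle covariate, and it ran from -0.088 to 0.047 with 1 array left out, being positive without 5XFAD replicate 1 or wild-type replicate 1. With 1 array left out, Krt19 ran from 0.26 to 0.47, Krt18 from -0.35 to -0.16, Krt8 from -0.089 to -0.020, Krt20 from -0.15 to -0.083 and Vim from 0.036 to 0.18. The count of the 6 genes at an unadjusted p under 0.05 in limma was 1 as reported. It was 0 without the dimmest 30% of genes, where Krt19 and Krt20 were left out and could not be tested. It was also 0 without the dimmest 50%, where Krt7 was left out as well. The count was 0 with the muscle covariate, 0 at an unadjusted p under 0.01, and 2 with the mean of all probe sets, where Krt18 joined Krt19. With 1 array left out it ran from 0 (without wild-type replicate 1) to 1, and without 5XFAD replicate 3 the 1 gene was Krt18. Genes past the adjusted threshold in limma numbered 5 as reported, 8 without the dimmest 30%, 9 with median centring, 9 with a trended and robust prior, 8 with array weights, and 3 (without wild-type replicate 3) to 19 (without wild-type replicate 2) with 1 array left out. The causes of these moves were not tested. Same-numbered samples did not deviate together in each of the 3 pairs (correlations of -0.06, -0.05 and 0.13), so the numbers were not taken as pairs. Among differently numbered samples, 5XFAD replicate 2 with wild-type replicate 1 gave 0.13. The value for 5XFAD replicate 1 with wild-type replicate 2 was 0.12, and the rest were negative. Another matching of the samples was not tested. With the replicate block limma gave 6 genes past the adjusted threshold and a Krt19 difference of 0.37. Krt7, Krt19 and Krt20 are dim, and background there limits the size of fold that can be seen.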

Other observations

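Further values of marker genes of neighbouring cell types, chosen after they were seen, included those of glial and surface genes. Slc1a3, the glial glutamate transporter gene, gave 6.16, 5.11 and 6.05 log2 intensity in 5XFAD, against 4.77, 5.10 and 4.48 in wild type, with the groups apart and a difference of 0.99 ± 0.26 (limma, Benjamini-Hochberg adjusted p = 0.50). The glial water channel gene Aqp4 differed by 0.51 ± 0.20 with overlapping groups. These were the 2 of 9 retinal glia and photoreceptor genes past an unadjusted p of 0.05 in limma, beside 6.28% of all genes. The list had 3 of 9 positive and a median of -0.10, and the glial genes Glul and Kcnj10 were at -0.038 ± 0.098 and 0.091 ± 0.13. Upk1b, a uroplakin gene, gave 6.83, 6.91 and 7.42 in 5XFAD, against 6.51, 6.45 and 6.20 in wild type, a difference of 0.67 ± 0.16 (limma, Benjamini-Hochberg adjusted p = 0.44). Upk3b, a uroplakin gene of mesothelium and urothelium, differed in the other direction, by -0.34 ± 0.12. Markers of goblet cells (6 genes) and Merkel cells (5 genes) had 0 members past an unadjusted p of 0.05 in limma, with median differences of -0.10 and -0.08.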
